A study of Rattus norvegicus with 16 samples.

Results

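The genes described here are 9 transcription factors of the CREB, ATF and C/EBP families, Creb1, Crem, Atf1, Atf2, Atf3, Atf4, Cebpa, Cebpb and Cebpd, in the gustatory cortex of rats that had drunk water or saccharin. They were taken by gene symbol in the array annotation, which gives each of them 1 probe set, so the 9 probe sets stand among 15209 that are paired with 1 gene and 28826 in all. All 9 were measured and none was removed by a filter.

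The samples are 16 Affymetrix RaGene 1.1 ST v1 arrays of total RNA from the gustatory cortex, a taste area within the insula. Each array holds 1 male Wistar Hola rat, and the 4 groups of 4 combine the fluid drunk in the last session, water or saccharin, with the time from its end to decapitation, 1 h or 3 h. Every rat, in the water groups too, had been on water restriction for 3 days, so water was the familiar taste and 0.1% saccharin the unfamiliar one. The labels give an age of 2 months and the study's methods give a somewhat older range. No group without a drinking session is among the arrays, so a level before drinking was not analysed here. The arrays numbered C365 to C372 are all from 3 h and C373 to C380 from 1 h, and whatever follows that numbering cannot be told apart from time.

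CREB1, CREM and ATF1 are the cAMP-responsive members of a large family of leucine zipper factors. They sit on cAMP response elements (CREs) as dimers, and they are switched on mainly by phosphorylation of existing protein, after calcium or cAMP signals, and by coactivators, rather than by making more of their messenger RNA. ATF2 is likewise activated by stress kinases, ATF4 is controlled largely at translation in the integrated stress response, and ATF3 is an immediate early gene that is nearly silent in resting tissue. C/EBPβ and C/EBPδ are induced by cAMP, cytokines and glucocorticoids, and C/EBP factors have long been studied in memory consolidation as genes downstream of CREB. Crem also has an internal promoter, rich in CREs, that gives the short repressor ICER. Arrays measure messenger RNA and see neither phosphorylation nor protein.

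The promoter sequences show which of these genes carry the letters that CREB binds, and so could be read by their own family. RefSeq promoter windows of GRCr8, from 250 bases before to 50 after a transcript start, were matched for 6 of the 9 genes and gave 9 windows. Atf1, Atf3 and Cebpd had no match. The full CRE, TGACGTCA, which reads the same on both strands, was in 1.83% of all 33469 windows and in 2 of the 9. Both were starts of Crem that lie 50.7 and 51.4 kb downstream of its first one. The CRE half-site, TGACG or CGTCA on either strand, of which each full CRE holds 2 that overlap, was in 21.2% of all windows and in 6 of the 9, those of Creb1, Crem, Atf4 and Cebpb. Windows of 1 gene are not independent, and Crem alone has 3. Counted by gene, a half-site was in 4 of 6 factors and 23.0% of all genes. A full CRE was in 1 of 6 factors and 2.0% of all genes. Of the 24 CREB targets taken up further on, 18 had a window, with a full CRE in 5 of the 18 and a half-site in 15. Nr4a1 and Junb had half-sites only, and Fos had no match. The stretches that follow are shown because they hold full or half-sites. The last of them is from Dusp1, a CREB target with a full CRE whose level is given further on. Capitals mark full and half-sites, and each stretch lies on the plus strand and ends before its start site.
Creb1, chr9:73397404-73397479: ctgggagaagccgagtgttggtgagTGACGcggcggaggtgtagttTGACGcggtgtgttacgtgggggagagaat
Crem, chr17:58984716-58984773: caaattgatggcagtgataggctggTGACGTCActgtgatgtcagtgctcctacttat
Crem, chr17:58985430-58985487: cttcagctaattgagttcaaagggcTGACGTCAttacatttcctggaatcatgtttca
Atf4, chr7:113684536-113684590: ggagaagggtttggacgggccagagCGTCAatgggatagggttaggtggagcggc
Cebpb, chr3:176816873-176816973: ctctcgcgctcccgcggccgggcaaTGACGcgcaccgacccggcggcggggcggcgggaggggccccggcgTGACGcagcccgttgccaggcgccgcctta
Dusp1, chr10:17184656-17184761: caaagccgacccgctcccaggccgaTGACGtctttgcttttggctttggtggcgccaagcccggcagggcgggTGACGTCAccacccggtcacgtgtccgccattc
Creb1 and Cebpb thus have paired half-sites within the 105 and 132 bases before their starts, and the downstream Crem starts have a full CRE within 81 and 60 bases. A palindromic C/EBP site, TTGCGCAA, was in 0 of the 9 windows and in 0.17% of all. The ATF4 and C/EBP composite, TGATGCAA or TTGCATCA, was in 0 of the 9 and 0.795% of all. A CCAAT box, CCAAT or ATTGG, was in 1 of the 9, that of Atf2, and in 37.5% of all. A match is only a run of letters, and no binding was measured.

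No change of messenger RNA with taste or time was detected for any of the 9 factors. The log2 RMA level averaged over the 16 arrays was 6.21 ± 0.10 (SD, n = 16) for Creb1, 5.68 ± 0.07 for Crem, 6.68 ± 0.08 for Atf1, 9.96 ± 0.06 for Atf2, 3.31 ± 0.11 for Atf3, 8.31 ± 0.07 for Atf4, 5.73 ± 0.09 for Cebpa, 5.47 ± 0.13 for Cebpb and 5.92 ± 0.05 for Cebpd. These levels are not abundances of one gene against another, since signal also depends on the probes. Against the array medians of 5.08 to 5.16, Atf2 and Atf4 were bright, Atf3 was dim, and the others lay above those medians. Among all tested probe sets, Atf2 stood at percentile 97.3 of mean signal, Atf4 at 84.2 and Atf3 at 14.6. Cebpb, Crem, Cebpa and Cebpd were below the middle of the tested probe sets, at 41.3, 43.8, 44.4 and 47.0. Creb1 was at 50.8 and Atf1 at 58.1. The spread within groups was at percentile 9.92 for Atf2 and 9.31 for Cebpd, among the smallest, and at 81.7 for Cebpb, the widest of the 9.

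**Figure D1:**
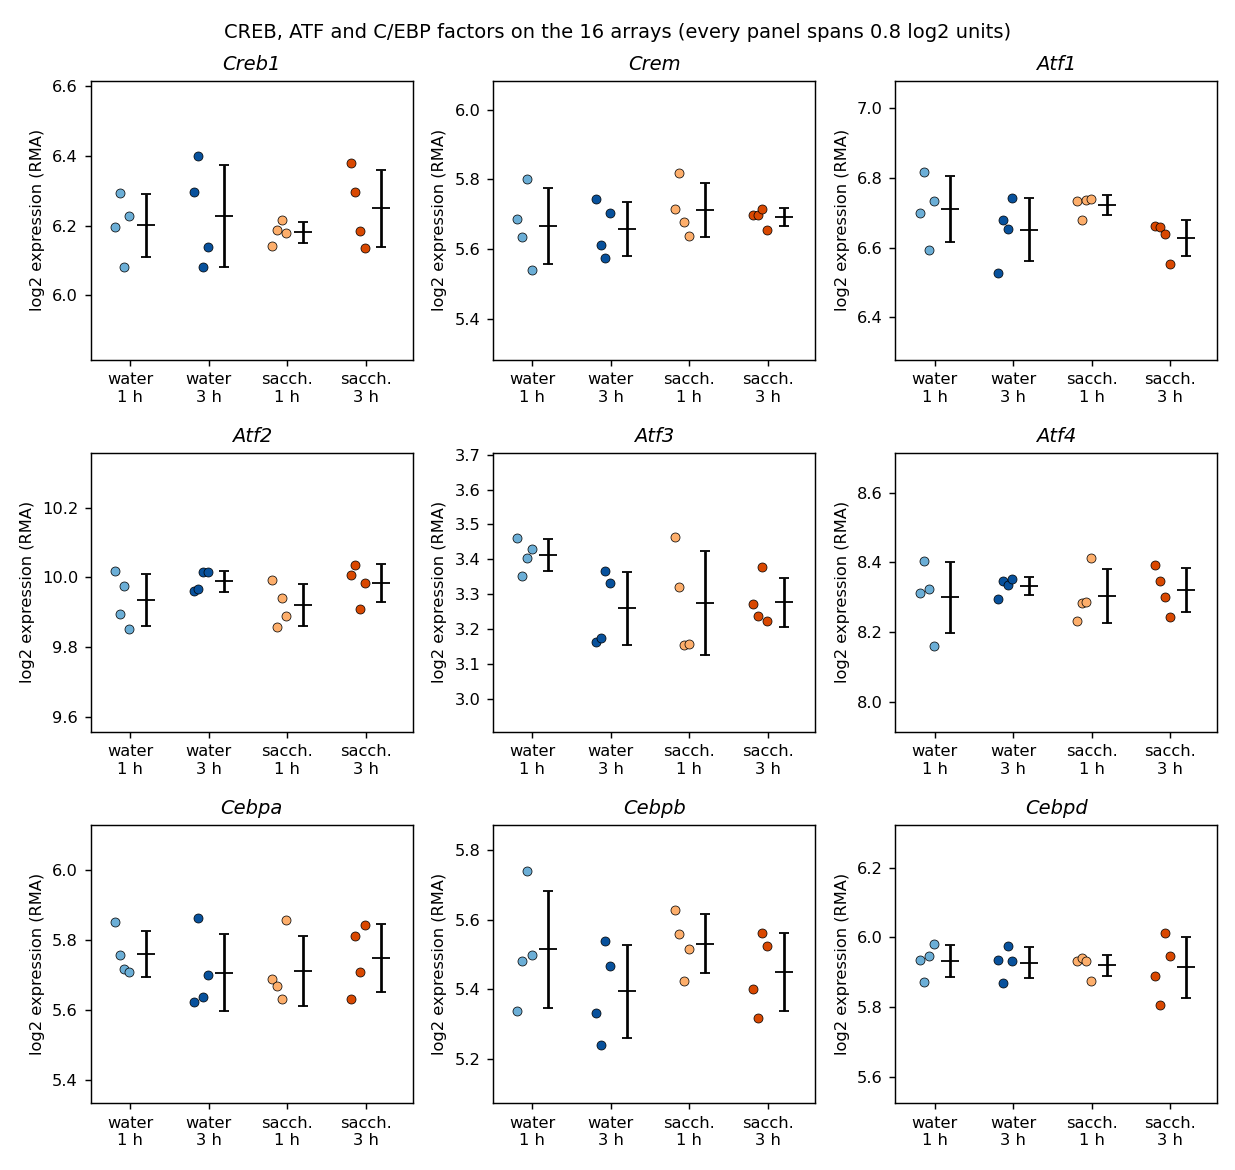
Log2 expression (RMA, vertical axes) of the 9 factors in each of the 16 arrays, with 1 point per array, grouped along the horizontal axis by fluid and time, and the mean ± SD of each group of 4 at its right. Every panel spans the same number of log2 units, and in all but the saccharin groups of Atf1 the points of 1 h and 3 h overlap within each taste.

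In limma, fitted over all 15209 probe sets, 0 of the 9 factors passed a Benjamini-Hochberg adjusted p of 0.05 in any comparison. The background of called probe sets was 0.348% between 1 h and 3 h after saccharin, 0.125% after water and 1.01% over both tastes, so that few or no calls among 9 probe sets would be seen at the background rate. Between saccharin and water, and for the interaction of taste and time, limma called 0 probe sets of the whole array. At an unadjusted p under 0.05, the factors gave 1 value between the times after water and 0 after saccharin, where the background was 7.23% and 7.98%. For taste they gave 0 at 1 h and 0 at 3 h, against 3.06% and 3.37%, and for the interaction 0 against 2.96%.

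The intervals state how large a change of RMA signal could have been missed. They do not bound the change of messenger RNA where signal is compressed, as can be for the dim Atf3. Nor do they bound single transcripts, such as those from the downstream Crem starts. Over both tastes, the 95% intervals of the difference, 1 h minus 3 h, ran for the 9 factors from log2 -0.15 at the lowest to 0.22 at the highest, which is a change of signal of at most 1.17-fold. After saccharin alone the bounds were -0.22 and 0.25, or 1.19-fold, and after water alone -0.17 and 0.30, or 1.23-fold. Between saccharin and water the bounds were -0.28 and 0.19 at 1 h and -0.14 and 0.23 at 3 h, and for the interaction they were -0.36 and 0.21. The median size of the difference with time over both tastes was 0.048 for the 9 factors and 0.040 for all tested probe sets. Between the tastes it was 0.017 against 0.039 at 1 h and 0.021 against 0.040 at 3 h. As the tissue was measured in bulk, a change in 1 cell type could be diluted in these values, and fewer cells of a type and less RNA per cell cannot be told apart.

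**Figure D2:**
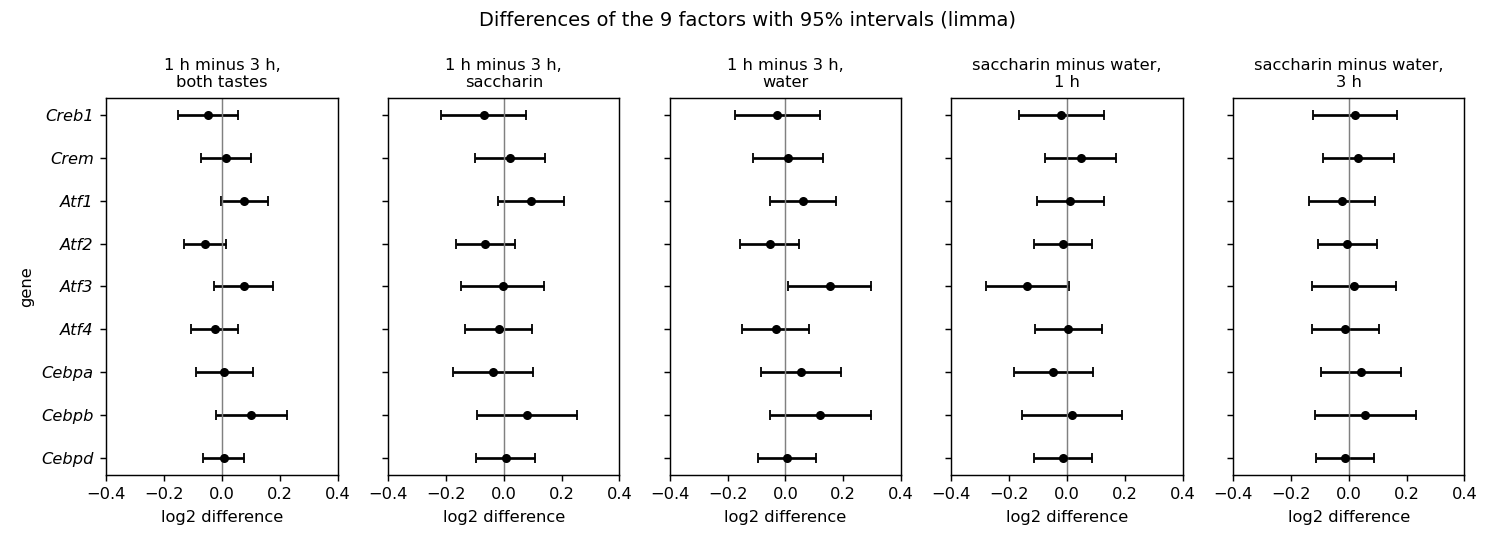
Log2 differences (horizontal axes) of the 9 factors in 5 comparisons, with points for the estimate of limma and bars for its 95% interval, computed from 16 arrays. The bar of Atf3 between 1 h and 3 h after water lies above 0, before any adjustment, and every other bar crosses 0.

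Creb1, the founding member and the factor most often tied to lasting memory, had levels of 6.14, 6.18, 6.19 and 6.22 at 1 h after saccharin and of 6.14, 6.18, 6.30 and 6.38 at 3 h. After water it had 6.08, 6.20, 6.23 and 6.29 at 1 h and 6.08, 6.14, 6.30 and 6.40 at 3 h. The arrays overlapped in both tastes, and the spread was widest in water 3 h (SD 0.15, n = 4) and narrowest in saccharin 1 h (SD 0.03, n = 4). The limma difference, 1 h minus 3 h, was -0.05 over both tastes (standard error 0.049, adjusted p = 0.769). Saccharin and water differed by -0.02 at 1 h and 0.02 at 3 h.

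Crem, the relative of Creb1 whose downstream starts hold the full CREs shown above, had levels of 5.64, 5.68, 5.71 and 5.82 at 1 h after saccharin against 5.65, 5.70, 5.70 and 5.72 at 3 h. After water the levels were 5.54, 5.63, 5.69 and 5.80 at 1 h and 5.58, 5.61, 5.70 and 5.74 at 3 h. No group stood apart, and the limma difference over both tastes was 0.01 (standard error 0.041, adjusted p = 0.944). The probe set is given for the gene as a whole, and transcripts from the downstream starts were not measured separately.

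Atf1, the third of the cAMP-responsive factors, was the one gene whose arrays did not overlap in a comparison. After saccharin its levels were 6.68, 6.73, 6.74 and 6.74 at 1 h and 6.55, 6.64, 6.66 and 6.66 at 3 h, so that all 4 arrays of 1 h lay above all 4 of 3 h. Such separation in either direction was seen for 4.78% of all probe sets in the same comparison. The difference was 0.09 (standard error 0.054), with adjusted p = 0.717 in limma and p = 0.0286 in an exact permutation test, the smallest that 4 arrays against 4 can give. Arrays that do not overlap always give that permutation p, so it only restates the separation, and it is unadjusted. After water the levels were 6.59, 6.70, 6.74 and 6.82 at 1 h and 6.53, 6.65, 6.68 and 6.74 at 3 h, which overlapped, with a difference of 0.06 (standard error 0.054, limma adjusted p = 0.885). Over both tastes the difference of 0.08 (standard error 0.039) had adjusted p = 0.445 in limma, the lowest of the 9 factors, and p = 0.0453 in an exact permutation test within tastes. The interaction of taste and time was 0.03 and did not pass (95% interval -0.13 to 0.20, limma adjusted p = 1.00).

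Atf2, activated by the stress kinases p38 and JNK, was bright and tight. All 16 values lay between 9.85 and 10.04. Its mean was 9.92 at 1 h and 9.98 at 3 h after saccharin and 9.94 and 9.99 after water, and the limma difference over both tastes was -0.06 (standard error 0.034, adjusted p = 0.525; exact permutation p = 0.0522).

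Atf3, a stress- and injury-induced repressor that is used as an immediate early marker, gave the one value with an unadjusted p under 0.05 in limma. Its levels after water were 3.35, 3.40, 3.43 and 3.46 at 1 h and 3.16, 3.17, 3.33 and 3.37 at 3 h, so that the groups met at a single pair of arrays. The difference was 0.15 (standard error 0.068), with p = 0.0389 and adjusted p = 0.658 in limma and p = 0.0571 in an exact permutation test. After saccharin the levels were 3.15, 3.16, 3.32 and 3.46 at 1 h and 3.22, 3.24, 3.27 and 3.38 at 3 h, with a difference of -0.004 (standard error 0.068, limma adjusted p = 0.995). The interaction of -0.16 (standard error 0.097) had adjusted p = 1.00 in limma, and at 1 h saccharin and water differed by -0.14 (standard error 0.068, adjusted p = 1.00). The signal was far below the array medians in every group, where differences in RMA values tend to be compressed.

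Atf4, the effector of the integrated stress response, lay between 8.16 and 8.41 on all 16 arrays. Its group means were 8.30 and 8.32 at 1 h and 3 h after saccharin and 8.30 and 8.33 after water. The limma difference over both tastes was -0.03 (standard error 0.039, adjusted p = 0.867).

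Cebpb, a C/EBP gene, had the largest difference with time over both tastes of the 9 factors, while Atf1 had a larger one after saccharin and Atf3 after water. Its levels after saccharin were 5.42, 5.52, 5.56 and 5.63 at 1 h and 5.32, 5.40, 5.52 and 5.56 at 3 h. After water they were 5.34, 5.48, 5.50 and 5.74 at 1 h and 5.24, 5.33, 5.47 and 5.54 at 3 h. The groups overlapped in both tastes, and the limma difference over both was 0.10 (standard error 0.058, adjusted p = 0.533). Cebpa, a factor of differentiation in liver, fat and myeloid cells, lay between 5.62 and 5.86, and Cebpd, a cytokine-responsive partner of C/EBPβ, between 5.81 and 6.01. Their limma differences over both tastes were 0.008 (standard error 0.046, adjusted p = 0.971) and 0.006 (standard error 0.034, adjusted p = 0.971).

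The 9 factors did not all vary together from array to array. Of the 36 pairs, 18 had a Pearson correlation below 0 over the 16 arrays, and the median r was 0.002. Some pairs had an unadjusted permutation p under 0.05 but did not pass after adjustment. Cebpd had r = -0.58 with Creb1 (p = 0.0177), -0.58 with Atf4 (p = 0.019) and 0.51 with Cebpb (p = 0.0433). Atf3 had r = 0.50 with Cebpb (p = 0.0478). The named pairs share genes and are not separate relations. One pair passed a permutation test after adjustment over the 36 pairs, Creb1 and Cebpb, which moved in opposite directions (r = -0.77, permutation p = 0.00048, adjusted p = 0.0173; Spearman's rho = -0.78, permutation p = 0.0006, adjusted p = 0.0216; 100000 permutations). Creb1 was at its highest in water 3 h array C367 and saccharin 3 h array C366 (6.40 and 6.38), where Cebpb stood at 5.24 and 5.40, and Cebpb was at its highest in water 1 h array C376 (5.74), where Creb1 stood at 6.08. Without arrays C367 and C366, the farthest from the median of Creb1, r was -0.72. It was -0.70 within the 8 arrays of 1 h, -0.85 within the 8 of 3 h and -0.78 after subtracting the 4 group means. At 3 h the pair followed the array numbering, across both tastes. Arrays C365 to C368 had Creb1 at 6.30 to 6.40 and Cebpb at 5.24 to 5.40. Arrays C369 to C372 had Creb1 at 6.08 to 6.18 and Cebpb at 5.47 to 5.56. At 1 h, C373 to C376 and C377 to C380 overlapped for both genes. Whether array order has a part in the correlation was not tested. Of the other 15208 probe sets, 0.125% were as strongly correlated with Creb1, in either direction, and 0.0921% with Cebpb. The mean of the leptomeningeal markers had r = -0.14 with Creb1 (permutation p = 0.595) and r = 0.25 with Cebpb (permutation p = 0.346), with Spearman's rho of -0.10 (permutation p = 0.719) and 0.22 (permutation p = 0.402). The array median had r = 0.27 with Creb1 (permutation p = 0.306) and r = -0.08 with Cebpb (permutation p = 0.766). The part of other technical differences between arrays in the correlation was not tested.

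**Figure D3:**
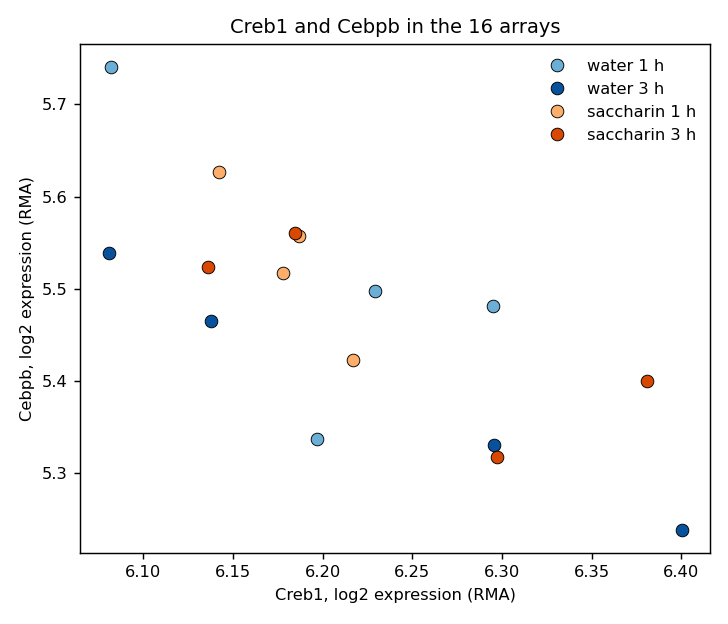
Log2 expression (RMA) of Creb1 (horizontal axis) and Cebpb (vertical axis), with 1 point for each of the 16 arrays, coloured by fluid and time. Arrays with high Creb1 have low Cebpb in the groups of 1 h and of 3 h alike, with r = -0.77 over all points.

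A wider list of relatives gave 1 call. Of its 20 genes, which are named CREB, ATF or C/EBP or are related to those, 19 were measured. Over both tastes limma called 1 higher at 1 h and 0 lower, against a background of 0.723% higher and 0.283% lower. The median difference was 0.01 against -1.15e-05 for all tested probe sets. The called gene was Nfil3, also known as E4BP4, a leucine zipper repressor that binds CRE-like sites. It carries no CREB, ATF or C/EBP name. It stood at 6.01 ± 0.10 (SD, n = 4) at 1 h and 5.61 ± 0.12 at 3 h after saccharin, with arrays that did not overlap (5.92 to 6.16 against 5.51 to 5.78). The difference was 0.40 (standard error 0.081, limma adjusted p = 0.0359). This call was lost with all probe sets of the table tested (adjusted p = 0.102), with the leptomeningeal marker mean as a covariate (difference 0.34, adjusted p = 0.43) and without any 1 of arrays C366, C370, C372, C375, C377, C378, C379 and C380 (differences 0.35 to 0.43, adjusted p from 0.0508 to 0.146). After water it stood at 5.87 ± 0.13 and 5.72 ± 0.14, a difference of 0.16 (standard error 0.081, limma adjusted p = 0.715), and the interaction of 0.24 did not pass (limma adjusted p = 1.00). Over both tastes the difference was 0.28 (limma adjusted p = 0.0212). It was 0.23 with the covariate (adjusted p = 0.299), 0.27 without saccharin 3 h array C372 (adjusted p = 0.0524) and 0.28 with all probe sets tested (adjusted p = 0.0526), and it did not pass in these 3 fits. Atf7, the close relative of Atf2, stood at 6.41 ± 0.17 and 6.64 ± 0.08 after saccharin and at 6.39 ± 0.10 and 6.57 ± 0.06 after water, a limma difference of -0.21 over both tastes (standard error 0.052, adjusted p = 0.0647).

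Of 25 coactivators and kinases that act on CREB, 20 were measured and limma called 0 in any comparison of time. Among all probe sets it called 0.348% after saccharin, 0.125% after water and 1.01% over both tastes. At an unadjusted p under 0.05, 3 were higher and 1 was lower over both tastes, against a background of 6.25% higher and 5.77% lower. The lower one was Rps6ka2, which encodes the ribosomal S6 kinase RSK3, with a difference of -0.19 (standard error 0.048, adjusted p = 0.0746). The higher ones were the CaM kinase kinase Camkk1 (0.10, adjusted p = 0.311), the CREB kinase Rps6ka5, or MSK1 (0.13, adjusted p = 0.365), and the calcium-stimulated adenylyl cyclase Adcy8 (0.11, adjusted p = 0.373). The list's median difference was 0.04.

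Of 24 genes that CREB is known to activate, 22 were measured, and limma called 9 higher at 1 h than at 3 h after saccharin, 6 after water and 9 over both tastes. The background of probe sets called higher was 0.276%, 0.0986% and 0.723%. The count of 6 after water was 1 in a fit of only the 8 arrays of that taste and 3 without water 1 h array C376. The targets had a median difference of 0.22 over both tastes against 0.008 for the 9 factors. Called lower were 0, 0 and 1. The list overlaps the activity-regulated genes already known to fall in these arrays, so its direction is not independent evidence, and the values of factors and targets were not tested against each other. Dusp1, the MAP kinase phosphatase whose CREs are shown above, stood at 8.90 ± 0.17 (SD, n = 4) at 1 h and 7.23 ± 0.20 at 3 h after saccharin and at 8.88 ± 0.20 and 7.52 ± 0.41 after water. Its limma difference was 1.52 over both tastes (standard error 0.11, adjusted p = 5.21e-07). Junb, Fos and the nuclear receptor Nr4a1 differed by 1.14, 1.18 and 1.72. The genes called higher over both tastes also included Nfil3, which is in this list as well. The gene called lower was Vgf, which encodes a secreted neuropeptide precursor and is named here after its values were seen, with a difference of -0.29 (standard error 0.066, limma adjusted p = 0.037). This call was lost with all probe sets tested, with the leptomeningeal covariate and without any 1 of 11 of the 16 arrays. Bdnf, the neurotrophin that is the best known of the list, differed by -0.18 and did not pass (adjusted p = 0.19). Between saccharin and water limma called 0 of the 22 at either time, and 0 probe sets of the whole array. At 1 h, 18 of the 22 were higher after saccharin, with a median of 0.05 against 0.002 for all tested probe sets. At 3 h, 17 were lower, with a median of -0.13 against -0.003. The interaction was positive for 17, with a median of 0.21 against 0.006, and limma called 0. The list was not tested as a set.

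For the other branches no target passed. The background of called probe sets between the times was 0.348% after saccharin, 0.125% after water and 1.01% over both tastes. At that rate few or no calls would be seen among 19 genes. Of 19 measured ATF4 targets limma called 0 in the comparisons of time, with a median difference of -0.009 over both tastes and Nupr1, a stress-induced chromatin protein, at 0.23 (standard error 0.099, adjusted p = 0.36). Of 19 measured C/EBP targets it called 0, with a median of -0.02, and Ptgs2, the inducible cyclooxygenase that also responds to CREB, at 0.30 (standard error 0.10, adjusted p = 0.199).

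**Figure D4:**
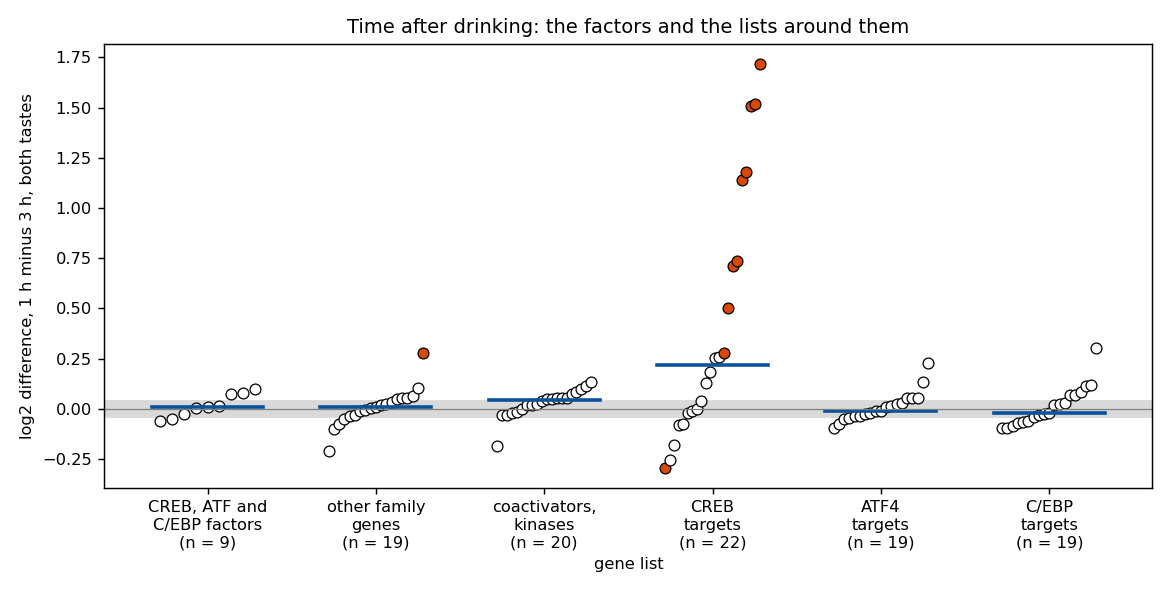
Log2 difference, 1 h minus 3 h over both tastes (vertical axis), of every measured gene in the 9 factors and in 5 lists around them (horizontal axis). Filled points passed the adjusted threshold in limma, blue lines are medians, and the grey band lies between the lower and upper quartile of all tested probe sets. The factors lie near the band, and the points far above it are CREB targets.

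Limma called 0 of the cell type markers between 1 h and 3 h over both tastes, where it called 1.01% of all probe sets. All 12 measured markers of leptomeninges and fibroblasts had a positive difference, 1 h minus 3 h, with a median of 0.28, and 9 of them were higher at an unadjusted p under 0.05, where the background was 6.25%. Their mean log2 level ranged from 6.74 to 7.03 at 1 h and from 6.16 to 6.85 at 3 h after saccharin, and from 6.68 to 6.99 and from 6.40 to 6.79 after water. Both blood markers had a positive difference, and 4 of 5 markers of striatal neurons, 5 of 7 of microglia, 4 of 5 of oligodendrocytes and 4 of 6 of neurons had a negative one. For astrocytes and for endothelial cells, 4 of 6 were positive. At an unadjusted p under 0.05 in limma, 3 of 5 striatal markers were lower at 1 h, with a median difference of -0.11. So were 2 of 7 of microglia, 1 of 6 of astrocytes and 1 of 6 of endothelial cells, where the background was 5.77%. Of the 2 blood markers 1 was higher, and for neurons and oligodendrocytes the count was 0. The 6 neuronal markers were bright throughout, with a mean log2 level from 10.2 to 10.3, as cortex should have. In a fit with the leptomeningeal marker mean as a covariate, 0 of the 9 factors passed. The part of the other cell types in the values of the factors was not tested.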

How the data were processed

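Before deposit, the authors read the CEL files with affy, whose version is not stated in the paper, and made 1 log2 value per probe set and chip with RMA, robust multi-chip averaging after quantile normalization of the probes. These deposited log2 values were used as they stand. Of 28826 probe sets, 15209 carry a single gene symbol in the array annotation, and only these entered the fit. Several symbols stand beside 306, and 13311 without an entry stay unnamed here. The study paired probe sets with genes by its own alignment, which this annotation replaced.

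A model of the 4 group means was fitted in limma (version 3.58.1, R 4.3.3) over all 16 arrays, with no covariate and 1 estimate of spread per probe set. P-values are two-sided and adjusted by Benjamini-Hochberg over 15209 probe sets, and a probe set was called at an adjusted p under 0.05. Single values of the factors also had an exact permutation test, whose p-values are unadjusted, and pairs of factors a permutation test with 100000 draws. The fit was tested on simulated data. Pairwise correlations of the arrays were 0.994 to 0.997 and none of the 120 pairs was identical. The number of arrays limits the precision.

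The 9 factors and all gene lists were chosen with earlier results of these data known. Every factor is named, and for each list up to 4 genes with the smallest p for time over both tastes. Bdnf and Vgf lie outside that rule, and the pair Creb1 and Cebpb was singled out after its values were seen. Promoter windows are from RefSeq (GRCr8). Replicates are separate rats. Alternatives covered the probe sets tested, a filter at a mean of 5, median centring, repeated quantile normalization, the prior, array weights, the leptomeningeal covariate, fits on 8 arrays and leaving out each array.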

Additional observations from a re-analysis of the deposited data

Results flagged for a closer look

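In 44 groups of 4 arrays that were checked (the 9 factors, Nfil3 and Atf7) for a value far from the rest, 2 were found, where chance gives about 1 in 20. Atf1 in saccharin 1 h array C377 was at 6.68, with the other arrays of the group at 6.73 to 6.74. Cebpd in saccharin 1 h array C380 was at 5.88, with the other arrays of the group at 5.93 to 5.94.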

How the results depend on the processing

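For the 9 factors, 0 passed in every comparison under every alternative run, and the lowest adjusted p of any of them was 0.329. The filter at a mean of 5 removed Atf3, so that alternative covered only 8 of the 9. Of 1478 values recomputed for the factors, 126 changed sign, none by as much as the spread of the probe set within groups, with a largest move of log2 0.075. Some alternatives, such as leaving out an array of another group, cannot move a difference. Counted by result, 36 of the 63 changed sign in at least 1 alternative. The directions of differences this small are therefore not settled. The alternatives for the other lists were chosen after seeing the data. The count of genes in the list of relatives called higher at 1 h was 1 after saccharin and 1 over both tastes (Nfil3). It was 0 in both with all probe sets of the table tested and 0 in both with the leptomeningeal covariate. Leaving out each array in turn gave 0 to 1 in both, with 0 after saccharin without C366, C370, C372, C375, C377, C378, C379 or C380, and 0 over both tastes without C372. The count called lower over both tastes, 0, was 1 (Atf7) with a filter at a mean of 5 and 1 with a trend and robust prior, and 0 to 1 on leaving out arrays (1 without C379). CREB targets called higher after water, 6, were 1 with only 8 arrays, and 3 to 7 on leaving out arrays (3 without C376). The CREB target called lower over both tastes, 1 (Vgf), was 0 with all probe sets, 0 with the leptomeningeal covariate, and 0 to 1 on leaving out arrays, the call being lost without any of C365, C367, C368, C369, C370, C371, C372, C375, C376, C377 and C380. The cause of these moves was not tested. No paired analysis was possible because the groups share no replicate number.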
